A study of Nasonia vitripennis and Nasonia giraulti with 12 samples.

Results

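The genes described here stood higher in adult males of the jewel wasp Nasonia vitripennis than in N. vitripennis females and in either sex of its relative N. giraulti. They were chosen from the read counts themselves. Each library was scaled by its own sum, to CPM, the count of a gene as parts of 1000000 counts. A gene was a member if its mean over the 3 N. vitripennis male libraries was at least 5 CPM, and if its log2(mean CPM + 0.5) there was at least 2 above that of each other group. That gap is 4-fold on the scale of CPM + 0.5. The rule found 164 members among 24337 genes (0.674%), or 1.66% of the 9851 genes with at least 5 CPM in N. vitripennis males. Turned to the other groups, the same rule found 88 genes for N. giraulti males, 102 for N. vitripennis females and 59 for N. giraulti females.

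Messenger RNA came from whole bodies of adults 24 h after eclosion, in N. vitripennis (strain AsymCX) and N. giraulti (strain R16A). All 12 libraries held RNA of 10 pooled animals that shared sex and species. There were 3 libraries for each of the 4 groups, given in the labels as independent batches, with totals from 23763596 to 51374887 counts. No group carried a treatment or an engineered allele in the labels, and a single strain stands for each species. Replicates of a group differed by more than sampling noise, and the libraries numbered the same in different groups tended to deviate together.

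Nasonia wasps lay their eggs on fly pupae. Sex follows fertilisation, with haploid males and diploid females. Males of N. vitripennis have short wings and stay near the host, and those of N. giraulti have larger wings. In adult insects the testis and the accessory glands, which make sperm and seminal fluid, are known as the main sources of RNA found in males and not in females. The deposited table gives identifiers without gene names, and none of them matched the RefSeq gene table for N. vitripennis (assembly Nvit_psr_1.1). What a member encodes is therefore not stated, and a tissue of origin cannot be assigned. In whole bodies, fewer cells of a type and less RNA per cell cannot be told apart.

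The members spanned a wide range of levels. In N. vitripennis males their means ran from 5.14 to 3044 CPM with a median of 24.9 CPM. There were 9 members at 1000 CPM or more, 35 between 100 and 1000 CPM, 82 between 10 and 100 CPM and 38 below 10 CPM. CPM is not divided by gene length, so the order of members by level also follows their length. Together they took 3.54% ± 0.321 (SD, n = 3) of all counts in N. vitripennis males, and the 9 most abundant held 58.8% of that sum. The members took 0.416% ± 0.109 of counts in N. vitripennis females, 0.187% ± 0.0118 in N. giraulti females and 0.454% ± 0.0244 in N. giraulti males. Because the rule read these very libraries, the shares are a description.

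**Figure D1:**
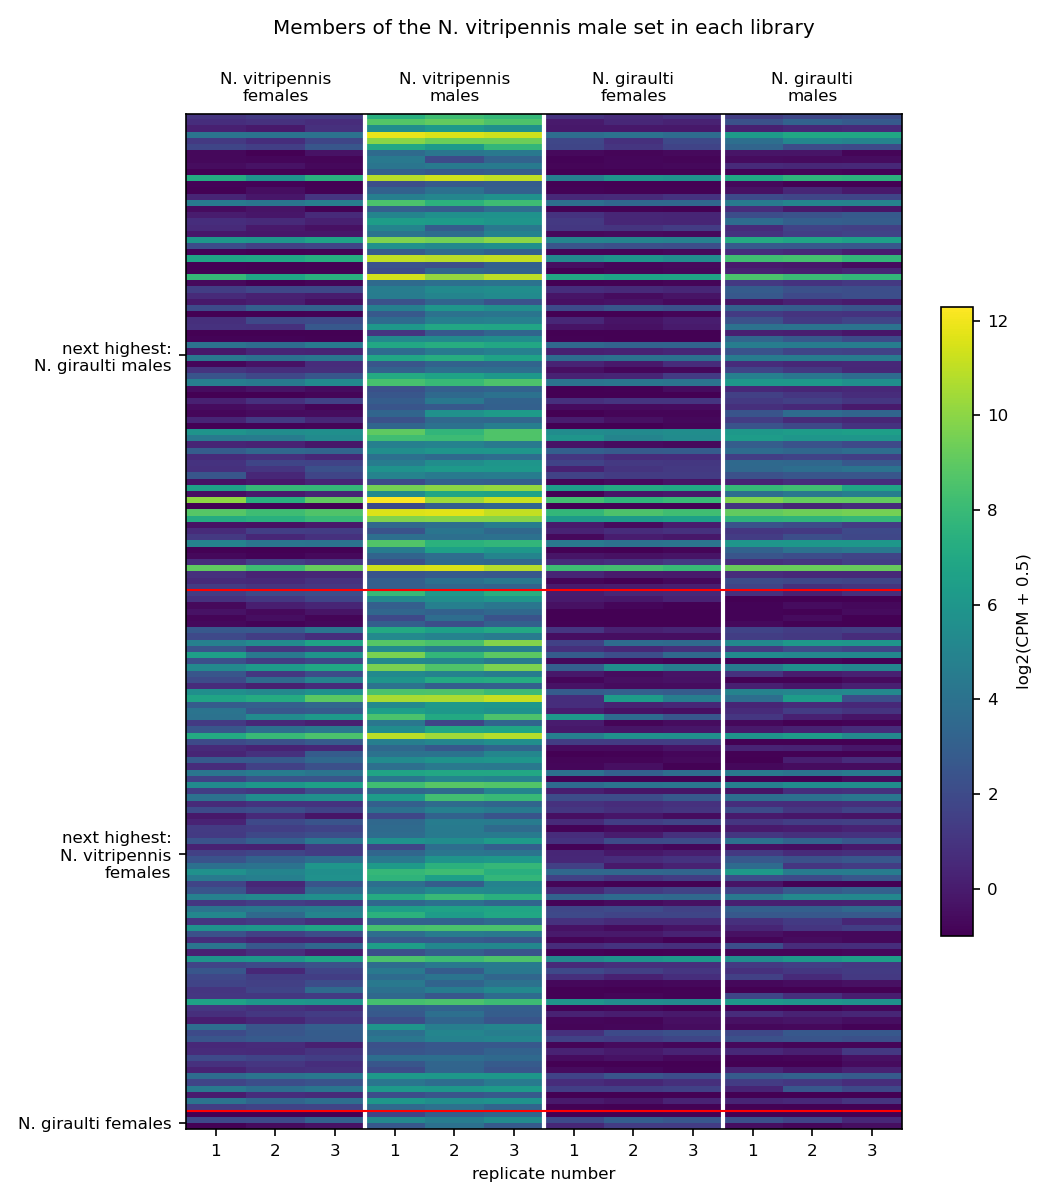
Level of each of the 164 members (rows) in each of the 12 libraries (columns), as log2(CPM + 0.5) in colour. Rows are grouped by the group with the next highest mean, with 77 for N. giraulti males, 84 for N. vitripennis females and 3 for N. giraulti females, and within each group by the size of the lead. The 3 columns of N. vitripennis males are the brightest in nearly every row.

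The lead over the next group was mostly close to the threshold. Its median was 2.43 on the log2 scale, 92 members led by less than 2.5, 31 by at least 3 and 11 by at least 4. The members just inside the gap led by 2.00 on the log2 scale, with 8.77 and 14.02 CPM in N. vitripennis males. The genes just outside it led by 1.996 and 1.992, with 7.10 and 43.6 CPM. At the level threshold the lowest members had 5.14 and 5.25 CPM in N. vitripennis males, and the nearest genes below it had 4.95 and 4.80 CPM. In 163 of the 164 members every N. vitripennis male library stood above all 9 other libraries, which also held for 12.5% of the 9851 genes at 5 CPM or more. The rule chose the members for a gap between the means of these same libraries, so this is a description. The exception, Nasvi2EG003533, overlapped with N. giraulti males. It had 9.61, 52.7 and 75.2 CPM in the N. vitripennis male libraries and 4.93, 12.05 and 9.71 CPM in those of N. giraulti males, and it shares reads with another row, so its level is uncertain.

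**Figure D2:**
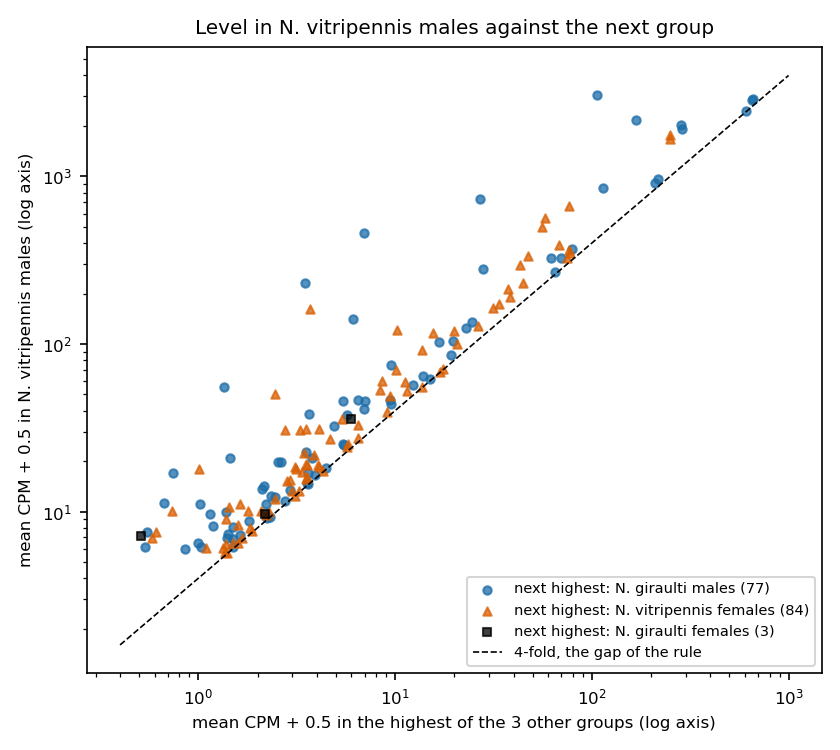
Mean CPM + 0.5 of each member in N. vitripennis males (vertical, log axis) against the highest mean of the other 3 groups (horizontal, log axis). Symbols show which group was next highest, and the dashed line marks the 4-fold gap of the rule. Most points lie close above the line, with 92 members leading by less than 2.5 and 11 by at least 4 on the log2 scale.

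The set did not consist of genes absent elsewhere. Only 30 members had at most 1 CPM in each of the 3 other groups. In N. giraulti males 54 members had 5 CPM or more and 10 had 100 CPM or more. In N. vitripennis females 56 had 5 CPM or more, and in N. giraulti females 32 did. The next highest group was N. vitripennis females for 84 members, N. giraulti males for 77 and N. giraulti females for 3. In the 84, the median was 25.7 CPM in N. vitripennis males, 3.47 in N. vitripennis females, 0.591 in N. giraulti females and 1.10 in their males. In the 77, it was 24.9 CPM in N. vitripennis males, 3.42 in N. giraulti males, 1.11 in N. vitripennis females and 0.690 in N. giraulti females. Members thus ranged from genes that N. vitripennis females also expressed and N. giraulti hardly did, to genes found in males of both species at a lower level in N. giraulti.

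Among members whose reads were not shared with another row, Nasvi2EG015454 and Nasvi2EG009037 had the highest CPM in N. vitripennis males. Nasvi2EG015454 stood at 5021, 1368 and 2329 CPM in the N. vitripennis male libraries numbered 1 to 3 (mean 2906 ± 1893, SD, n = 3). Its libraries held 1043, 167 and 528 CPM in N. vitripennis females, 312, 209.9 and 247 in N. giraulti females and 850.2, 574 and 542 in N. giraulti males. The male libraries of N. vitripennis lay above all others, but the library numbered 1 was high in all 4 groups. Without male replicate 1 of N. vitripennis the lead of this gene fell from 2.15 to 1.50 on the log2 scale, below the gap of the rule. Nasvi2EG009037 stood at 3133, 3279 and 2134 CPM in N. vitripennis males, against 439, 285 and 392 in their females, 225, 376 and 295 in N. giraulti females and 553, 648 and 742 in N. giraulti males. The lead of Nasvi2EG015454 was also below the gap without female replicate 2 of N. vitripennis (1.89), with TMM-scaled CPM (1.98) and without the libraries numbered 1 (1.73). TMM stands for scaling by a trimmed mean. The lead of Nasvi2EG009037, 2.14, was below it in the latter pair of settings, at 1.93 and 1.96. Neither gene was near 0 in any group. The mean of 3044 CPM ± 562 (SD, n = 3) was the highest and belonged to Nasvi2EG007621, singled out after its values were seen, whose reads are shared with another row and whose level is uncertain.

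The widest leads belonged to Nasvi2EG019557 and Nasvi2EG026657. Nasvi2EG019557 stood at 169, 289.9 and 231 CPM in N. vitripennis males, and at 1.47, 1.88 and 1.97 CPM in N. vitripennis females. In N. giraulti it had 1.41, 1.05 and 1.46 CPM in females and 2.17, 3.01 and 3.77 CPM in males. By pooled reads it was 74.0-fold higher in N. vitripennis males than in N. giraulti males (95% exact binomial interval 65.8 to 83.5, counting error only). Nasvi2EG026657 stood at 425, 558 and 386 CPM in N. vitripennis males, and at 1.18, 1.39 and 1.08 CPM in their females. In N. giraulti it had 0.461, 0.893 and 0.715 CPM in females and 4.42, 8.57 and 6.42 CPM in males. Its pooled ratio of N. vitripennis males was 372 over N. vitripennis females (312 to 448) and 70.6 over N. giraulti males (65.2 to 76.5). Both genes were low in every library outside N. vitripennis males, and in both the N. giraulti male libraries lay above those of N. giraulti females.

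**Figure D3:**
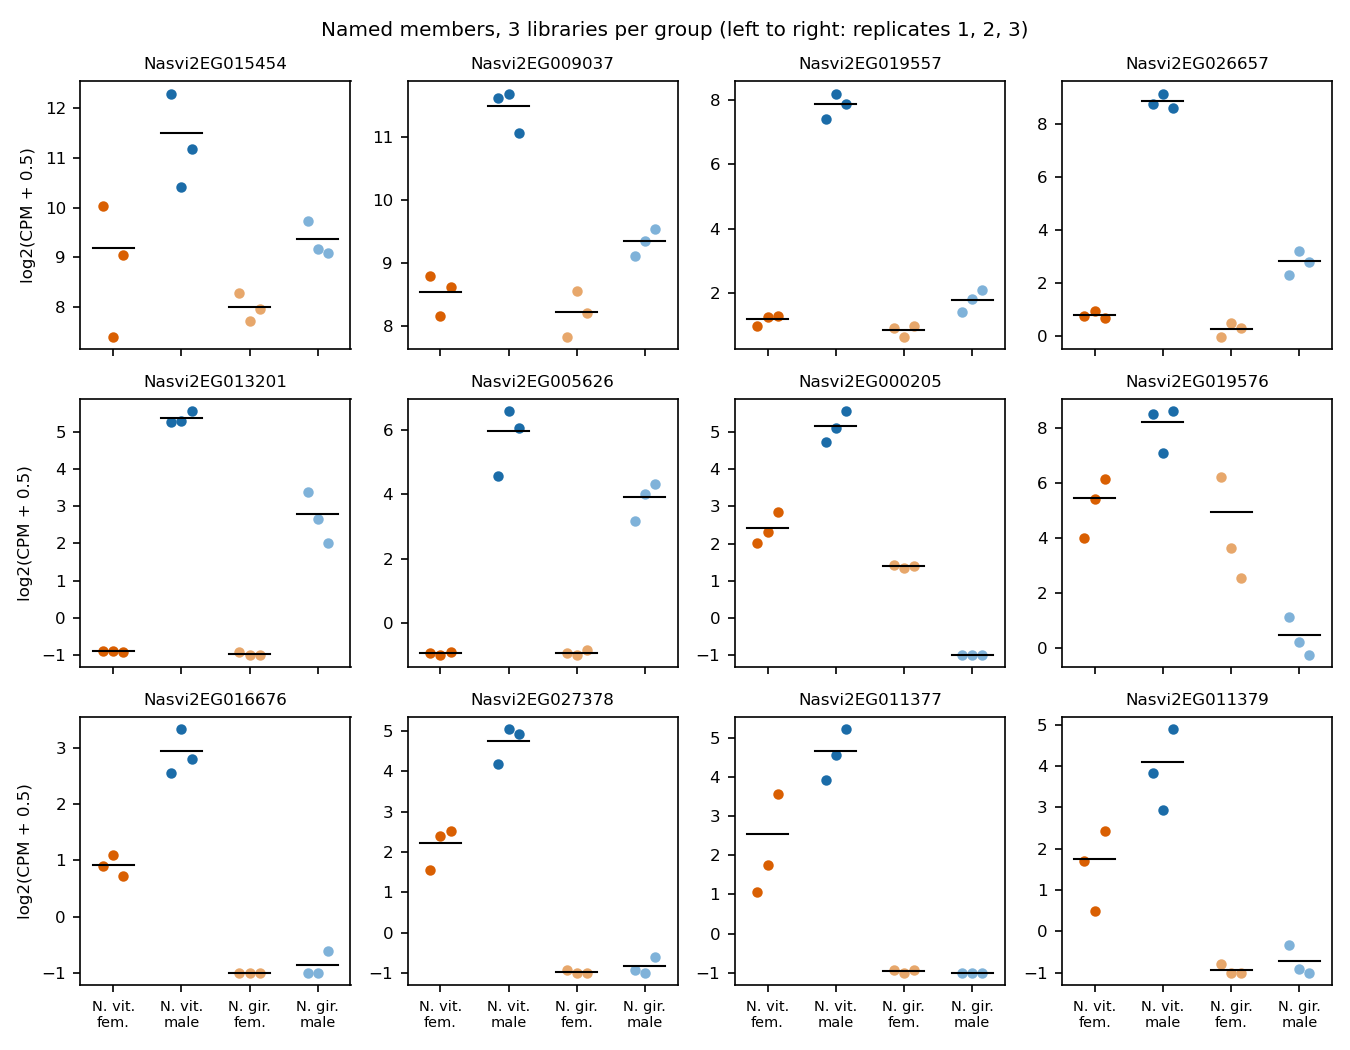
Level of 12 named members as log2(CPM + 0.5) on the vertical axis, with a point for each of the 3 libraries per group and a bar for the group mean. Each panel has its own vertical scale. The panels show leads from 2.02 for Nasvi2EG016676 to 6.05 for Nasvi2EG019557 on the log2 scale.

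The comparisons that the rule used are given as a description. In the edgeR fit across 16536 genes, 163 members were called higher in males than in females of N. vitripennis, where 32.6% of all genes tested were called in that direction. The exception was Nasvi2EG010997 (edgeR adjusted p = 0.0961), at 109.7, 143 and 494 CPM in females and 1512, 1560 and 2216 CPM in males. All 164 were called higher in males of N. vitripennis than in males of N. giraulti, where 16.6% of all genes were. Over all genes the split of calls moved with the scaling. For the sexes of N. vitripennis it was 32.6% higher and 32.4% lower in males, or 45.9% and 24.2% with upper-quartile scaling. For males of the species it was 16.6% higher and 15.02% lower in N. vitripennis, or 21.6% and 11.8% with library size alone.

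The sexes of N. giraulti were not compared with each other by the rule, but it read the same libraries to set an upper limit for both. N. giraulti males were the next highest group in 77 members and N. giraulti females in 3, so the limit did not bear on the sexes alike. Of the 164 members, 109 (66.5%) rose in N. giraulti males over females, 5 (3.05%) were higher in females and 50 did not pass the test (quasi-likelihood test of edgeR, adjusted p under 0.05 over all genes by Benjamini-Hochberg, 3 libraries per group). Over all 16536 genes, 30.0% were called higher in males and 26.9% higher in females. With scaling by library size alone these shares were 21.2% and 31.8%, with 90 members higher in males, and with upper-quartile scaling 40.4% and 21.8%, with 125 members. The 164 include 32 members whose counts in N. giraulti were too low for the filter and which were tested through their level in N. vitripennis, which the rule chose. Among these 32, 6 were called higher in males and 26 were not called. In a fit of the N. giraulti libraries alone the other 132 were tested, and 99 were higher in males and 5 in females, against 29.6% and 30.8% of all genes in that fit. Males over females, the members had a median log2 fold change of 1.61, or 1.55 with the 11 members that had 0 reads in a group set at a bound of 3 counts, against 0.33 for all genes. The 3 male libraries lay above the 3 female libraries in 104 members and below them in 5, against 26.3% and 34.9% of all genes. The members were chosen in part for a male excess in N. vitripennis, and what this added to their share higher in N. giraulti males was not tested. Of the 1100 genes that met only the level and the 4-fold gap of N. vitripennis males over their females, the members included, 938 (85.3%) were called higher in males of N. giraulti and 8 (0.727%) higher in females. The members stood at 66.5% and 3.05%. The groups compared in N. giraulti share no library with those that chose these 1100 genes. The calls are from the fit of all 12 libraries, though. There a gene can pass the filter through N. vitripennis males, and the spread is estimated with them. This list was not counted in a fit of the N. giraulti libraries alone.

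The 4 members named above for their level or lead were all called higher in N. giraulti males than in N. giraulti females, though at different certainty. The log2 fold change of males over females in N. giraulti was 3.51 (SE 0.29, edgeR adjusted p = 4.54e-07) for Nasvi2EG026657 and 1.47 (SE 0.25, edgeR adjusted p = 0.000264) for Nasvi2EG019557. For Nasvi2EG009037 it was 1.40 (SE 0.26, edgeR adjusted p = 0.000481). For Nasvi2EG015454 it was 1.66 (SE 0.61, edgeR adjusted p = 0.0348), and this call was lost without any single one of the 6 N. giraulti libraries, with adjusted p from 0.0528 to 0.109.

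The members with the largest male excess in N. giraulti were nearly without reads in females of both species. Nasvi2EG013201 had 9.95, 5.83 and 3.51 CPM in N. giraulti males and 1 read in the 3 N. giraulti female libraries together, a ratio of 730.0 with an interval from 131 to 28876 (edgeR adjusted p = 1.27e-07). In N. vitripennis it had 37.9, 38.2 and 46.1 CPM in males and 4 reads in all female libraries. Nasvi2EG005626 had 8.41, 15.6 and 19.5 CPM in N. giraulti males, against 3 reads in N. giraulti females, a ratio of 489 (167 to 2375, edgeR adjusted p = 3.47e-07). In N. vitripennis it had 23.4, 94.8 and 66.2 CPM in males and 2 reads in females. Both were nearly without reads in females of either species, and every N. giraulti male library lay below every N. vitripennis male library. Over all members, 46 had at most 1 CPM in both female groups.

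**Figure D4:**
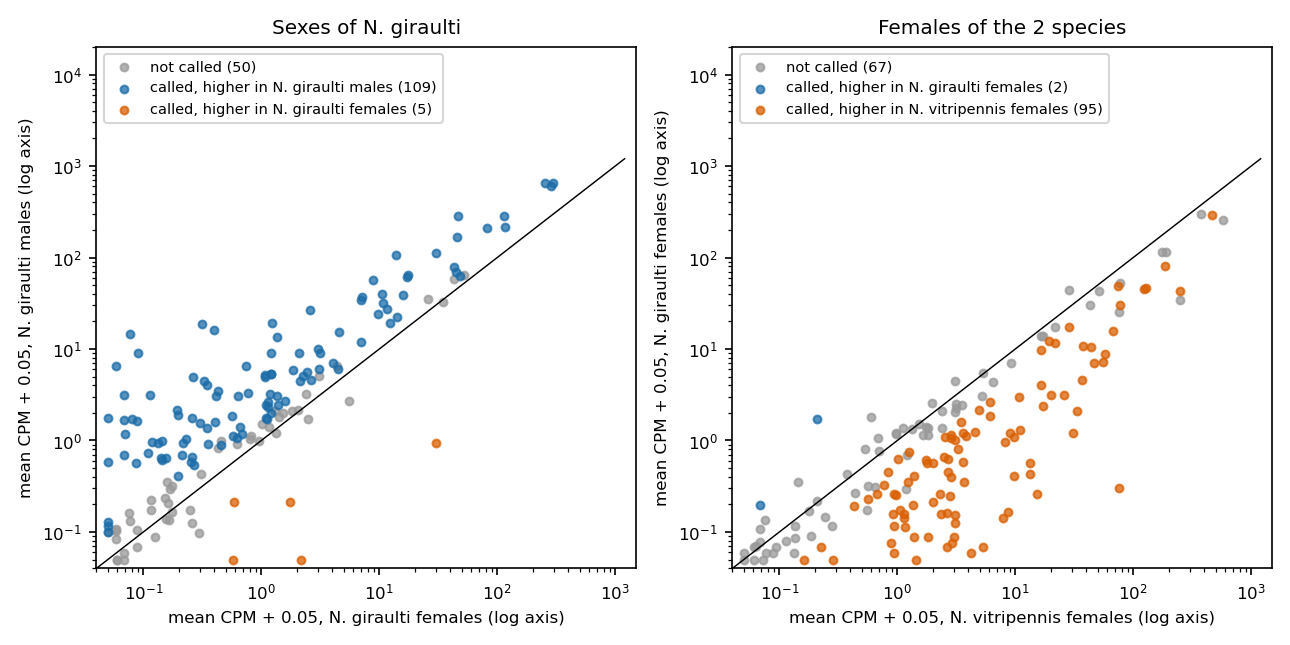
Mean CPM + 0.05 of each member on log axes, with N. giraulti males against N. giraulti females on the left and N. giraulti females against N. vitripennis females on the right. Colours show the calls of the edgeR test and the line marks equal levels. On the left 109 members were called above the line and 5 below it, and on the right 2 above and 95 below.

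In 5 members the sex difference of N. giraulti ran toward females, with every N. giraulti male library below every N. giraulti female library. Nasvi2EG000205 and Nasvi2EG019576 were named by rule, and the other 3 because the count was small. Nasvi2EG000205 had 2.18, 2.03 and 2.15 CPM in N. giraulti females and 0 reads in N. giraulti males, at least 70.1-fold lower in males if the 0 is set to 3 counts for the group (edgeR adjusted p = 1.57e-06). In N. vitripennis it had 26.0, 33.7 and 46.5 CPM in males and 3.52, 4.45 and 6.64 CPM in females. Nasvi2EG000207 also had 0 reads in N. giraulti males, against 0.487, 0.400 and 0.687 CPM in N. giraulti females, and was at least 17.4-fold lower in males (edgeR adjusted p = 6.17e-05). In N. vitripennis males it stood at 38.3, 47.5 and 63.8 CPM. The identifier between this pair belongs to a gene of the set mirrored for N. giraulti males, whose mean was 16058 CPM ± 4261 in N. giraulti males and 2121 ± 935 in those of N. vitripennis (SD, n = 3).

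Nasvi2EG019576 had 73.8, 11.95 and 5.29 CPM in N. giraulti females and 1.67, 0.668 and 0.340 CPM in N. giraulti males, with a ratio of 33.1 toward females (interval 27.1 to 40.97, edgeR adjusted p = 0.00356). The female library numbered 1 stood far above the other two, and without the libraries numbered 1 the ratio of means was 17.1. Without N. giraulti female replicate 1 alone the log2 fold change of males over females went from -4.70 to -2.95 (edgeR adjusted p = 0.0122). Nasvi2EG002247 had 0.536 CPM ± 0.156 (SD, n = 3) in N. giraulti females and 0.162 ± 0.0782 in males (edgeR adjusted p = 0.0196). That call was lost without N. giraulti female replicate 3 or N. giraulti male replicate 2 or 3, with edgeR adjusted p from 0.0698 to 0.075. Nasvi2EG005758, which shares reads, had 1.69 CPM ± 0.692 in N. giraulti females and 0.162 ± 0.0617 in males (edgeR adjusted p = 0.00200). In N. vitripennis all 5 were higher in every male library than in every female library.

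Females of the species were not set against each other by the rule either, but it set an upper limit for both. N. vitripennis females were the next highest group in 84 members and N. giraulti females in 3. This comparison uses the same N. giraulti female libraries as that of the sexes of N. giraulti. Of the 164 members, 95 (57.9%) were lower in N. giraulti females than in N. vitripennis females, 2 were higher and 67 did not pass the test. Over all genes tested, 18.4% were called lower in N. giraulti and 12.5% higher. With the replicate number as a block, 112 members were lower, against 30.4% of all genes. With library size alone 87 members were lower, against 12.8% of all genes, and with upper-quartile scaling 88, against 13.1%, and in both fits more genes were called higher than lower in N. giraulti. The 164 include 28 members too low for the filter in females, tested through their level in males, of which 3 were called lower and 1 higher. In a fit of the female libraries alone the other 136 were tested, and 80 were lower and 2 higher in N. giraulti females, against 10.9% and 13.0% of all genes in that fit. With N. vitripennis females as the base, the median log2 fold change of N. giraulti females was -1.76 for the members, or -1.69 with the 7 members that had 0 reads in a group set at a bound, against -0.20 for all genes. The 3 N. giraulti libraries lay below the 3 of N. vitripennis in 97 members and above them in 6, against 18.1% and 22.4% of all genes. Of the 491 genes that met only the level and the 4-fold gap of N. vitripennis males over N. giraulti males, the members included, 364 (74.1%) were lower in N. giraulti females and 5 (1.02%) higher. This part of the rule did not use the female libraries. The calls are from the fit of all 12 libraries, where the males also bear on the filter and the spread. This list was not counted in a fit of the female libraries alone. The sources used here do not name the reference sequence for the reads of either species. Poorer alignment of N. giraulti reads would also lower its counts, and this was not tested for any species difference given here. All 164 members were called lower in N. giraulti males than in N. vitripennis males. Among the 77 with N. giraulti males next, 25 were called lower in N. giraulti females, 1 higher and 51 were not called. Among the 84 with N. vitripennis females next, 70 were called lower and 14 were not called.

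The named examples were close to 0 in both sexes of N. giraulti. Nasvi2EG016676 had 1.37, 1.63 and 1.15 CPM in N. vitripennis females and 0 reads in N. giraulti females, at least 48.6-fold lower in N. giraulti (edgeR adjusted p = 0.000166). It had 5.39, 9.55 and 6.50 CPM in N. vitripennis males and 4 reads in all N. giraulti male libraries. Nasvi2EG027378 had 2.44, 4.77 and 5.22 CPM in N. vitripennis females and 1 read in N. giraulti females, a ratio of 406 toward N. vitripennis with an interval from 72.4 to 16067 (edgeR adjusted p = 1.06e-05). In N. vitripennis males it had 17.6, 32.4 and 29.7 CPM, against 5 reads in N. giraulti males. Over all members, 56 had at most 1 CPM in both sexes of N. giraulti. With the 6 N. giraulti libraries summed, 4 members had 3 reads or fewer, Nasvi2EG011377, Nasvi2EG023361, Nasvi2EG019084 and Nasvi2EG017539, with 24.9, 11.9, 6.62 and 5.14 CPM in N. vitripennis males. Of these, Nasvi2EG019084 also had 0 reads in N. vitripennis females.

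The 2 members higher in N. giraulti females, named for their small number, were low in all females. Nasvi2EG011136 was too low for the filter in females and was tested only through its level in males, which the rule read. Nasvi2EG011136 had 0.205, 0.0924 and 0.143 CPM in N. giraulti females and 2 reads in all N. vitripennis female libraries (edgeR adjusted p = 0.0269), and the call was lost without replicate 1 or 2 of N. vitripennis females or replicate 1 or 3 of N. giraulti females (adjusted p from 0.0552 to 0.0892). Nasvi2EG005758 had 0.886, 2.09 and 2.08 CPM in N. giraulti females and 0.0248, 0.163 and 0.293 CPM in N. vitripennis females, on shared reads (edgeR adjusted p = 0.00329).

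Members often carried consecutive identifiers. There were 14 runs of consecutively numbered members, 13 of 2 and a single run of 3, holding 29 members (17.7%). Of the 290 places numbered directly before or after a member and present in the table, 30 (10.3%) were held by another member, while members were 0.674% of all genes. The table gives no coordinates, and whether such rows are separate genes or pieces of a single gene was not tested. In 9 of the 14 runs no row shared reads. Over the 257 neighbours that were not members, the median log2 ratio of N. vitripennis males was 0.37 over N. vitripennis females and 0.23 over N. giraulti males, against 0.11 and 0.19 over the 14491 genes with at least 1 CPM in any group. The widest leads lay in such runs: Nasvi2EG019557 follows a member whose N. vitripennis males held 54.8 CPM ± 13.5 (SD, n = 3), against 0.845 ± 0.214 for N. giraulti males, and Nasvi2EG026657 follows a member at 20.2 ± 2.58 and 0.947 ± 0.0369.

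The run of 3 members reached from Nasvi2EG011377 to Nasvi2EG011379. Nasvi2EG011377 had 14.7, 23.2 and 36.7 CPM in N. vitripennis males and 1.60, 2.86 and 11.4 CPM in their females, with 2 reads in N. giraulti females and 0 in N. giraulti males. Nasvi2EG011379 had 13.7, 7.11 and 29.1 CPM in N. vitripennis males and 2.76, 0.897 and 4.91 CPM in their females, with 3 and 13 reads in N. giraulti females and males. The member between them had 15.6, 16.2 and 33.6 CPM in N. vitripennis males and 4 and 2 reads in N. giraulti females and males. Adjusted p-values of edgeR for lower counts in N. giraulti females were 0.000315 for Nasvi2EG011377 and 0.00171 for Nasvi2EG011379. All 3 were highest in the N. vitripennis libraries numbered 3, in males and in females.

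Replicates varied more among members than over all genes at 5 CPM or more in N. vitripennis males, the members included. The rule read the same male libraries and the genes were not matched for level, so this is a description. Their median coefficient of variation over the N. vitripennis male libraries was 29.2%, with a range from 2.88% to 77.7%, against 19.0% for all 9851 genes at 5 CPM or more in that group. Within N. vitripennis males, 67 members (40.9%) stood highest in the library numbered 3, where 17.0% of those 9851 genes did. In the library numbered 1, 94 members stood lowest, and the share of all genes that did was not counted. In N. vitripennis females 88 of the 162 members with a read (54.3%) stood highest in the library numbered 3, against 26.2% of genes with at least 5 CPM in that group. Of the members at 100 CPM or more in N. vitripennis males, Nasvi2EG026657 was the lowest in that female library relative to the male library of the same number, at 0.281% of the male level. What part RNA of males had in that female library was not tested beyond this value. Without N. vitripennis male replicate 1 the rule found 214 members, and without male replicate 2 or 3 it found 164 and 157.

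**Figure D5:**
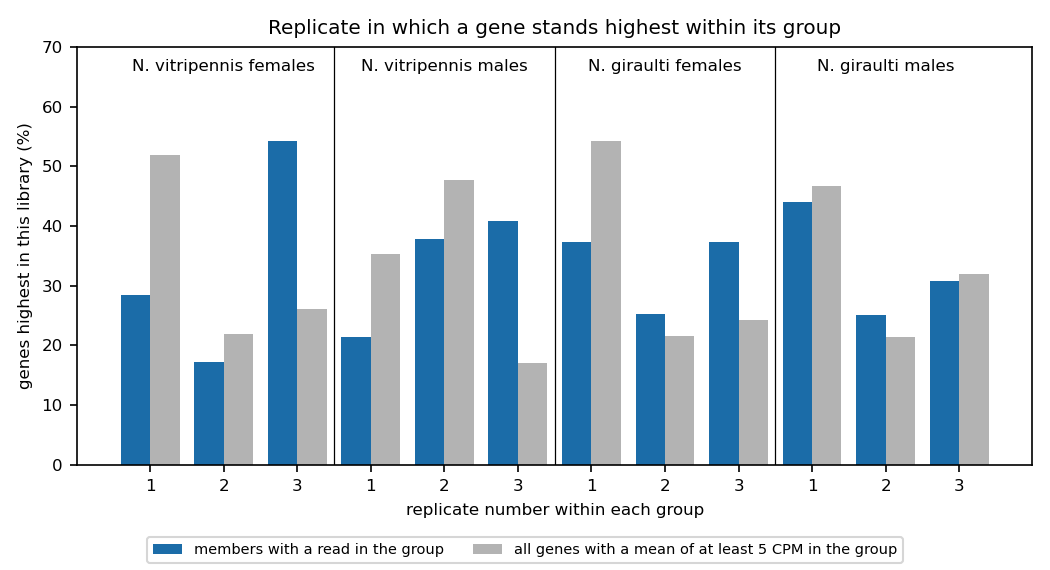
Share of genes, in percent, that stood highest in each of the 3 libraries of their group. Blue bars are the members with a read in the group and grey bars are all genes whose group mean reached 5 CPM. The library numbered 3 held 54.3% of members against 26.2% of genes in N. vitripennis females and 40.9% against 17.0% in N. vitripennis males.

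Reads divided between rows touched a minority of members. Fractional counts were found in 28 members (17.1%), against 18.0% of the 9851 genes at 5 CPM or more in N. vitripennis males. Of the 136 members with whole counts, 92 were called higher in N. giraulti males than females and 4 lower, against 30.6% and 26.6% of the 13773 genes tested that had whole counts. Between females, 81 were lower in N. giraulti and 1 higher, against 18.5% and 13.0%.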

How the data were processed

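Groups follow species and sex as labelled for 12 pools. The authors deposited a table of estimated counts for each gene, unscaled. The submitters' processing notes name edgeR, bedtools, HTSeq, Cufflinks 2.1.0, TopHat2 2.0, Trimmomatic, FastQC and CASAVA 1.8.2, without role or order. Genome build and annotation were not given in the sources used here. Of 24337 genes, 3372 (13.9%) held fractional counts, so reads were divided between rows. Levels are CPM by column sum. For tests, counts were rounded, genes kept with filterByExpr (minimum count 10), scaled by trimmed mean (TMM) and fitted with edgeR 4.0.16 in R 4.3.3 (robust quasi-likelihood, 12 libraries, a mean per group), after a check on simulated counts. The check compared the sexes of N. giraulti, with a single spread set for all genes. For each size of change 100 of 16536 genes were changed. In the data 4954 genes were called higher in males and 4447 higher in females, so the rates of the check need not hold there. It recovered 19% of log2 changes of 1 and 93% of log2 changes of 2, and 5.08% of its calls were false. A member that did not pass a test is thus not shown to be unchanged. Adjusted p-values are Benjamini-Hochberg over 16536 genes, called under 0.05. All 164 members passed the filter, which a gene high in a single group can do. Standard errors are not printed where a group held 0 to 3 reads, and pooled ratios with exact 95% intervals stand instead. A count of 3 is worth 0.0584 to 0.126 CPM, depending on the library. Intervals and floors cover counting error only. P-values measure the spread between these pools.

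Members and lists were chosen with earlier results of these data known. At most 2 genes per comparison and direction were named by rule: the highest and the widest lead in N. vitripennis males, the largest called differences with libraries apart and at least 1 CPM in the higher group, and the ends of the longest run, passing over members with fractional counts except for the run. Genes outside it are marked in the text. Marker lists could not be used, since 0 identifiers matched the 15501 RefSeq genes. Libraries of the same number tended to deviate together (18 pairs, r from 0.20 to 0.708, and 36 other pairs from -0.57 to 0.325), by the data and not the labels. The ranges overlapped. Replicate 2 of N. vitripennis males had r of 0.325 with replicate 3 of N. giraulti males and 0.222 with replicate 2. A pairing by number is therefore not established. Alternatives were other scalings, filters, DESeq2 1.42.0, the replicate number as a block, the compared groups alone, and left-out libraries.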

Additional observations from a re-analysis of the deposited data

Results flagged for a closer look

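What drew attention was that 5 members moved in opposite directions by sex in the species. Every male library stood above every female library in N. vitripennis and below every female library in N. giraulti. The difference itself was not tested, because the rule fixed the direction in N. vitripennis. There every male library stood above every female library in all 164 members. In N. giraulti every male library lay below every female library in 34.9% of the 16536 genes tested, against 5 of the 164 members. The mean in N. giraulti females was 30.4 CPM for Nasvi2EG019576, 2.12 CPM for Nasvi2EG000205, 0.525 CPM for Nasvi2EG000207, 0.536 CPM for Nasvi2EG002247 and 1.69 CPM for Nasvi2EG005758. In N. giraulti males it was 0.892 CPM for Nasvi2EG019576 and 0.162 CPM for both Nasvi2EG002247 and Nasvi2EG005758, and Nasvi2EG000205 and Nasvi2EG000207 had 0 reads. The N. giraulti female library numbered 1 held most of the reads of Nasvi2EG019576, and reads of Nasvi2EG005758 are shared with another row.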

How the results depend on the processing

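The number of members followed the rule's own thresholds, at 737 with a gap of 1 and 31 with a gap of 3 on the log2 scale. With TMM-scaled CPM it was 130, with a pseudocount of 0.1 or 1 CPM 206 and 133, and 157 to 214 without a single library. Without the libraries numbered 1 it was 206, of which 148 were among the 164. Members called higher in N. giraulti males numbered 90 with library size alone and 125 with upper-quartile scaling, where the median of all genes was 0.05 and 0.67 on the log2 scale in place of 0.33, and 21.2% and 40.4% of all genes were called higher. They numbered 90 to 101 without a single library, against 23.1% to 27.3% of all genes. Those higher in females numbered 4 to 5, against 23.5% to 27.4%. Members lower in N. giraulti females ranged from 80 of 136 tested with the compared groups alone (10.9% of all genes) to 112 of 164 with the replicate number as a block (30.4% of all genes). Without a single library they ranged from 87 to 97, against 12.9% to 19.0% of all genes. Between the sexes of N. giraulti the block gave 116 members with a male excess and 6 with a female excess. The shares of all genes called rose as well, to 38.1% and 31.2% with the block from 30.0% and 26.9% without it. No count of members called moved by over 1.5 times under the block. Over all genes, those lower in N. giraulti females numbered 3042, or 5022 with the block, 1616 with the compared groups alone and 1733 with a filter at a mean of 1 CPM. That filter also took genes higher in N. vitripennis than N. giraulti males from 2742 to 1762. The 2 members higher in N. giraulti females became 1 among members with whole counts, and 1 to 3 without a single library, against 9.48% to 12.1% of all genes. The count was 1 without replicate 2 of N. vitripennis females or replicate 1 or 3 of N. giraulti females. Without a single library, 159 to 163 members were called higher in males of N. vitripennis than in their females, against 27.0% to 30.4% of all genes. Between males of the species 158 to 163 were called higher in N. vitripennis, against 12.2% to 14.7%. Of 17 tested differences of single genes, all kept their direction in 14 or 15 alternatives. The calls of Nasvi2EG015454 and Nasvi2EG002247 by sex in N. giraulti were lost in 8 and 4 of them, with adjusted p up to 0.109 and 0.075, and that of Nasvi2EG011136 between females in 6, with adjusted p up to 0.19. The other 14 kept their calls. At this depth, members with 0 to 3 reads in a group have wide intervals.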

Other observations

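Of the 290 places directly before or after a member, 4 were held by genes of the set mirrored for N. giraulti males, 3 by that for N. giraulti females and 1 by that for N. vitripennis females. In that order these sets hold 88, 59 and 102 of the 24337 genes. The gene between Nasvi2EG000205 and Nasvi2EG000207 was counted beside each of them. Whether any of these counts exceeds the share of its set was not tested. The sums of members differed by the next highest group: among N. vitripennis male counts the 77 with N. giraulti males next held 2.49% ± 0.301 (SD, n = 3), against 0.390% ± 0.0214 in N. giraulti males, and the 84 with N. vitripennis females next held 1.04% ± 0.130 and 0.0637% ± 0.00650.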
